A study of Brassica napus with 12 samples.

Results

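The YABBY, KANADI and Asymmetric Leaves (AS) genes encode transcription factors that tell the upper, adaxial side of a young plant organ from its lower, abaxial side. They were taken from a table of read counts for rapeseed (Brassica napus) as every row whose best protein match was a YABBY protein, KAN1 to KAN4, AS1 or AS2 of a mustard-family species, with the carpel gene CRABS CLAW (CRC) left out. The rule found 44 of 100919 rows: 20 YABBY genes (6 copies of YAB1, 6 of YAB2, 2 of YAB3, 4 of YAB4 and 2 of YAB5), 20 KANADI genes (8 copies of KAN1, 6 of KAN2, 4 of KAN3 and 2 of KAN4) and 4 copies of AS1. No row carried the name AS2, and 2 rows named LBD6, another name for AS2, lie outside the rule and are described beside the members.

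RNA came from apical meristems of plants grown at an experimental station without treatment, at the stage when the inflorescence begins to form floral primordia. The groups were ZS11 (genotype label wild type), SX3 (a natural mutant, genotype label mutant) and 2 kinds of BC2 individuals of these lines, Zlike (genotype label wild type) and Slike (genotype label mutant), whose inflorescence and plant architecture differ. Each group had 3 libraries, and total counts ran from 13445924 to 17778731 per library. The labels name neither the mutated gene of SX3 nor the parental segments that the backcross plants carry. They do not say whether libraries came from separate plants, so the spread behind each p-value, which lies between libraries, may be technical.

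In Arabidopsis, KANADI proteins specify the abaxial side of lateral organs, and YABBY genes are switched on in the abaxial cells of organ primordia as these leave the meristem. KAN1, KAN2 and KAN3 overlap in function there, as do YAB1, YAB2, YAB3 and YAB5 in the leaf. AS1, a MYB protein, acts with AS2 on the adaxial side and keeps KNOX genes, which maintain the meristem, off in organ primordia. YAB4 (INNER NO OUTER) and KAN4 (ABERRANT TESTA SHAPE) are known there from the ovule integuments. Rapeseed combines an A and a C subgenome, so most of these genes are present as near-identical homoeologs. How the authors treated reads that fit several copies is not given in the sources used here, so levels of individual copies carry that uncertainty.

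The most abundant YABBY name, YAB1, was lowest in ZS11. Summed over its 6 copies, YAB1 (FILAMENTOUS FLOWER in Arabidopsis) was measured at 75, 81.6 and 82 CPM for ZS11, 181, 180 and 187 for SX3, 173, 170 and 171 for Zlike and 195, 204 and 197 for Slike, in CPM, the count of a gene scaled to the library's total by TMM. The 3 ZS11 libraries lay far below all others, and the Slike libraries were the highest. The sum was 2.35-fold higher in SX3 than in ZS11 (log2 1.23 ± 0.03 SE, adjusted p = 9e-84, edgeR quasi-likelihood test on counts summed per protein match) and 1.15-fold higher in Slike than in Zlike (log2 0.21 ± 0.03 SE, adjusted p = 3.69e-10). YAB2, summed over 6 copies, behaved differently, at 58.1, 57.6 and 58.8 CPM for ZS11, 60.6, 59.9 and 61.6 for SX3, 95.4, 99.5 and 100 for Zlike and 107, 102 and 98.9 for Slike. SX3 lay just above ZS11 without a call (adjusted p = 0.0564, but 0.0304 with upper-quartile scaling), Slike and Zlike overlapped (adjusted p = 0.272), and both backcross classes lay above both parents without overlap. The summed floral organ markers averaged 50.4 CPM in ZS11, 241 in SX3, 126 in Zlike and 446 in Slike, and their part in the YABBY levels was not tested. A p that misses the threshold of 0.05 does not show that the levels were equal.

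The rarer YABBY names, YAB3 and YAB5, also had their lowest sums in ZS11. YAB3 was at 4.61 ± 0.74 CPM (SD, n = 3) for ZS11, 7.75 ± 0.956 for SX3, 9.06 ± 1.06 for Zlike and 8.62 ± 1.13 for Slike, and it was higher in SX3 than in ZS11 (log2 0.76 ± 0.14 SE, adjusted p = 5.58e-07) with no call between Slike and Zlike (adjusted p = 0.674). YAB5 was at 1.8 ± 0.0952 CPM (SD, n = 3) for ZS11, 4.05 ± 0.532 for SX3, 4.05 ± 0.922 for Zlike and 4.76 ± 0.634 for Slike, again called between the parents (log2 1.19 ± 0.21 SE, adjusted p = 1.35e-07) and not between the backcross classes (adjusted p = 0.354). From ZS11 to SX3 the mean of its C03 copy went from 0.307 to 2.73 CPM. The mean of its A03 copy went from 1.49 to 1.32, without a call. The 4 YAB4 rows were at or near 0: 2 had no count in any library, BnaC05G0206300ZS averaged 0.0197 CPM in SX3 and 0 elsewhere, and BnaA07G0117200ZS averaged at most 0.181 CPM in a group. A count of 0 in a library allows up to 3 counts, which is 0.169 to 0.223 CPM at these depths, and this limit covers counting error only.

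Of the KANADI sums, KAN1, KAN2 and KAN3 were higher in SX3 than in ZS11 and KAN4 was lower. KAN1 was at 44.4, 49.2 and 46.2 CPM for ZS11, 69.2, 67.7 and 68.1 for SX3, 55.7, 55.2 and 56.6 for Zlike and 59, 63 and 62 for Slike, 1.5-fold higher in SX3 than in ZS11 (log2 0.58 ± 0.05 SE, adjusted p = 4.65e-25) and 1.09-fold higher in Slike than in Zlike (log2 0.13 ± 0.05 SE, adjusted p = 0.0212). The parental groups did not overlap, and the backcross classes lay between them. The call between the backcross classes is lost with DESeq2 (adjusted p = 0.134) and without Zlike replicate 2, Slike replicate 2 or Slike replicate 3 (adjusted p = 0.0675, 0.107 and 0.0777). KAN2 was at 36.3 ± 1.1 CPM (SD, n = 3) for ZS11, 46.6 ± 1.7 for SX3, 32.6 ± 1.23 for Zlike and 39.1 ± 1.49 for Slike, higher in SX3 (log2 0.39 ± 0.06 SE, adjusted p = 7.8e-11) and in Slike (log2 0.25 ± 0.06 SE, adjusted p = 0.000236), and its lowest mean was in Zlike. KAN3 was at 5.04 ± 0.977 CPM (SD, n = 3) for ZS11, 6.3 ± 0.452 for SX3, 6.56 ± 0.574 for Zlike and 6.98 ± 0.283 for Slike, with a call between the parents (adjusted p = 0.0211) and none between the backcross classes (adjusted p = 0.706). The parental call is lost with DESeq2 (adjusted p = 0.105) and without ZS11 replicate 1, ZS11 replicate 3 or SX3 replicate 3 (adjusted p = 0.166, 0.0708 and 0.0976). KAN4 ran the other way, at 4.19 ± 0.187 CPM (SD, n = 3) for ZS11, 2.5 ± 0.676 for SX3, 3.04 ± 0.298 for Zlike and 4.1 ± 0.203 for Slike, and was lower in SX3 than in ZS11 (log2 −0.74 ± 0.20 SE, adjusted p = 0.000325); Slike and Zlike were not called (adjusted p = 0.0709).

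The summed AS1 level was lowest in Slike and was not called between the parents. It was at 316, 331 and 302 CPM for ZS11, 314, 312 and 322 for SX3, 327, 328 and 333 for Zlike and 266, 280 and 274 for Slike. The 3 Slike libraries were the lowest of the 12, and the ZS11 libraries spanned those of SX3 and overlapped those of Zlike. Between SX3 and ZS11 the difference was 0.03 ± 0.02 SE on the log2 scale (adjusted p = 0.27, but 0.024 without ZS11 replicate 2). Between Slike and Zlike it was −0.28 ± 0.02 SE (adjusted p = 2.87e-20). Of the 9 names that could be tested, 7 were called between the parents (6 higher, 1 lower) and 4 between the backcross classes (3 higher, 1 lower). Over all protein matches the called share was 76.5% and 34.7%, so the counts of names stand near the background of each comparison. In bulk tissue, fewer cells that express a gene and less RNA per cell cannot be told apart.

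**Figure D1:**
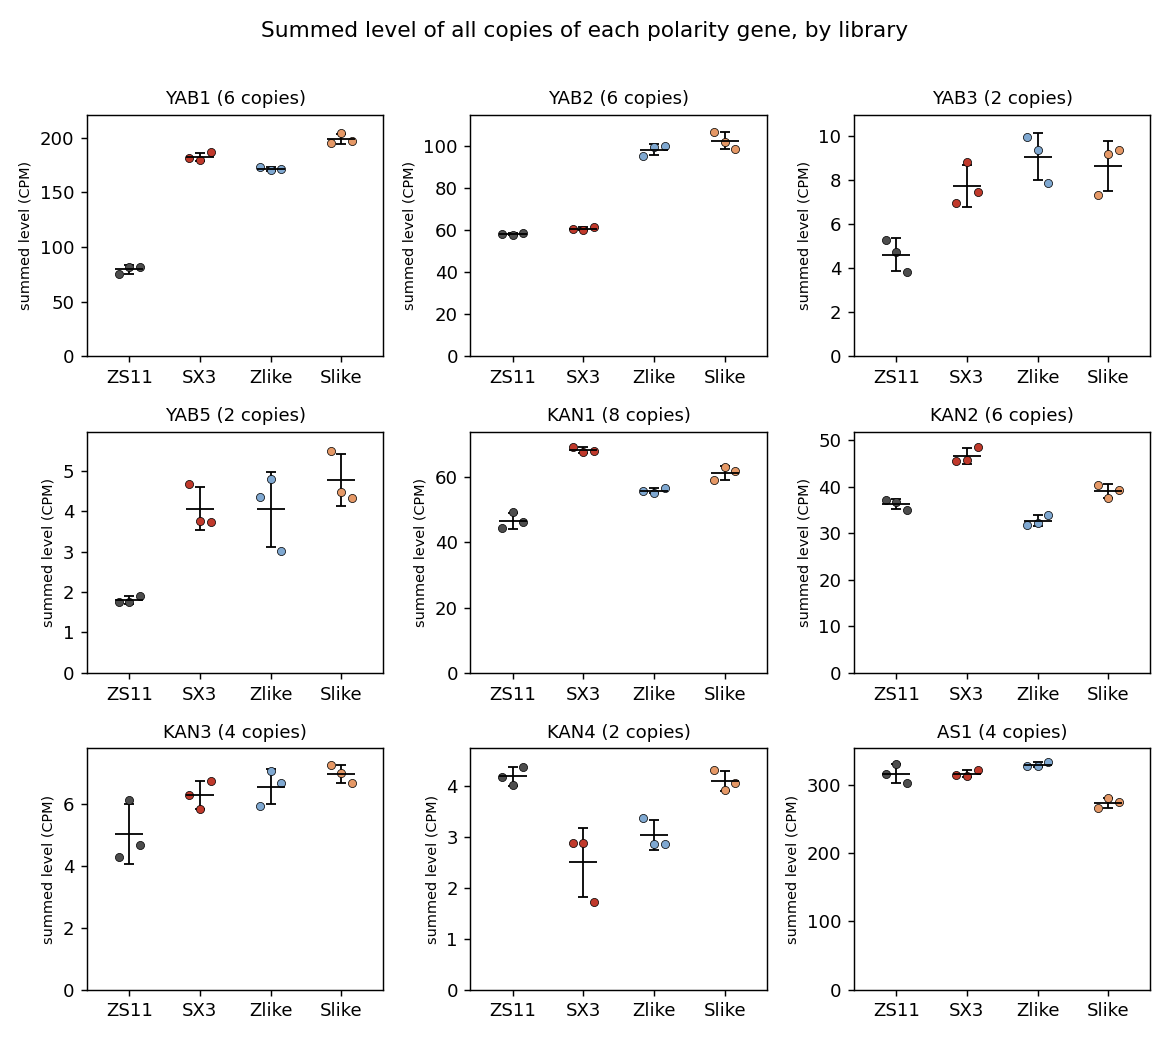
Summed level of 9 protein names in each of the 12 libraries, in TMM-scaled CPM on linear axes; points are libraries, and bars with error bars are the mean ± SD of 3 libraries. YAB1 averaged 79.5 CPM in ZS11 and at least 171 in the other groups, YAB2 at most 60.7 in the parents and at least 98.3 in the backcross classes, and AS1 was lowest in Slike, at 273.

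Levels were compared between names per transcript length, as the authors' FPKM summed over copies. In ZS11, AS1 led with 214 ± 9.65 FPKM (SD, n = 3), followed by YAB1 with 111 ± 5.48, YAB2 with 90.7 ± 2.84, KAN1 with 35.6 ± 1.84 and KAN2 with 21.2 ± 0.363. YAB3 (6.22 ± 1), KAN3 (5.48 ± 1.17) and KAN4 (5.07 ± 0.228) came next and did not differ beyond their spread, and YAB5 was at 3.12 ± 0.035. In SX3, YAB1 stood above AS1, at 260 ± 5.48 against 215 ± 3.82 FPKM. The same order held in Zlike (251 ± 2.7 and 234 ± 2.18) and in Slike (290 ± 7.12 and 193 ± 4.83).

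Copy by copy, 38 of the 44 rows reached a mean of 1 CPM in at least 1 group and 6 did not: the 4 YAB4 rows, KAN1 BnaC09G0498900ZS and KAN2 BnaC02G0393800ZS. The last pair and 2 YAB4 rows had no count in any library. Between SX3 and ZS11, 37 rows passed the filter on low counts and 26 were called by edgeR, 22 higher and 4 lower in SX3. Over all genes tested the called share was 69.3% (33.4% higher, 35.9% lower). The number of member calls is therefore near the background. The median log2 difference of the 37 rows was 0.56, against −0.01 over all genes. YAB5 on C03 and KAN3 on A08 and on C08 passed that filter through SX3 alone, the only group with all 3 libraries at its level, and KAN1 on C02 through ZS11 alone, so these counts are a description of the rows.

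Between Slike and Zlike, 38 rows were tested and 13 were called, 10 higher and 3 lower, against a background of 27.2% (13.8% higher, 13.4% lower). The median log2 difference was 0.09 against 0.00 over all genes. KAN3 on C08 and YAB5 on C03 passed the filter there through Slike alone. Of the 8 rows called in both comparisons, which share no library, 7 were higher in both, 1 was lower in both, and none was called in opposite directions. Over all genes, 11148 were called in both, 39.4% of them higher in both, 46.3% lower in both and 14.3% in opposite directions, and with 8 rows nothing is read from the members' split.

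The parental and the backcross differences were themselves unequal for many members. In the test of (Slike − Zlike) − (SX3 − ZS11), fitted on all 12 libraries, 26 of 38 rows were called, 6 higher and 20 lower, against 53.3% of all genes (30.1% higher, 23.2% lower). Of the YABBY rows 11 were lower and 1 higher of 16, of the KANADI rows 6 lower and 4 higher of 18, and of the AS1 rows 3 lower and 1 higher of 4. A lower call means that the difference Slike − Zlike was below the difference SX3 − ZS11.

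Comparing the groups that carry the same genotype label, 26 of 38 rows differed between Zlike and ZS11, 23 higher and 3 lower in Zlike, against 46.0% of all genes (23.1% higher, 22.9% lower). Each of the 16 YABBY rows tested was higher in Zlike, with log2 differences from 0.50 to 2.12, and the count was 16 under every alternative run. KANADI rows were called higher in 5 and lower in 2 of 18, and AS1 rows higher in 2 and lower in 1 of 4. Between Slike and SX3, 22 of 38 rows differed, 12 higher and 10 lower, against 53.7% (29.8% higher, 23.9% lower). Of the YABBY rows, 9 were higher and 1 lower. The higher count ranged from 7 (DESeq2, and without SX3 replicate 2) to 10 (the replicate block, and without Slike replicate 1). The lower count was 2 with RLE or upper-quartile scaling, without a filter and without SX3 replicate 3. These comparisons share libraries with the others, so their values are given side by side and no overlap between them is drawn.

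**Figure D2:**
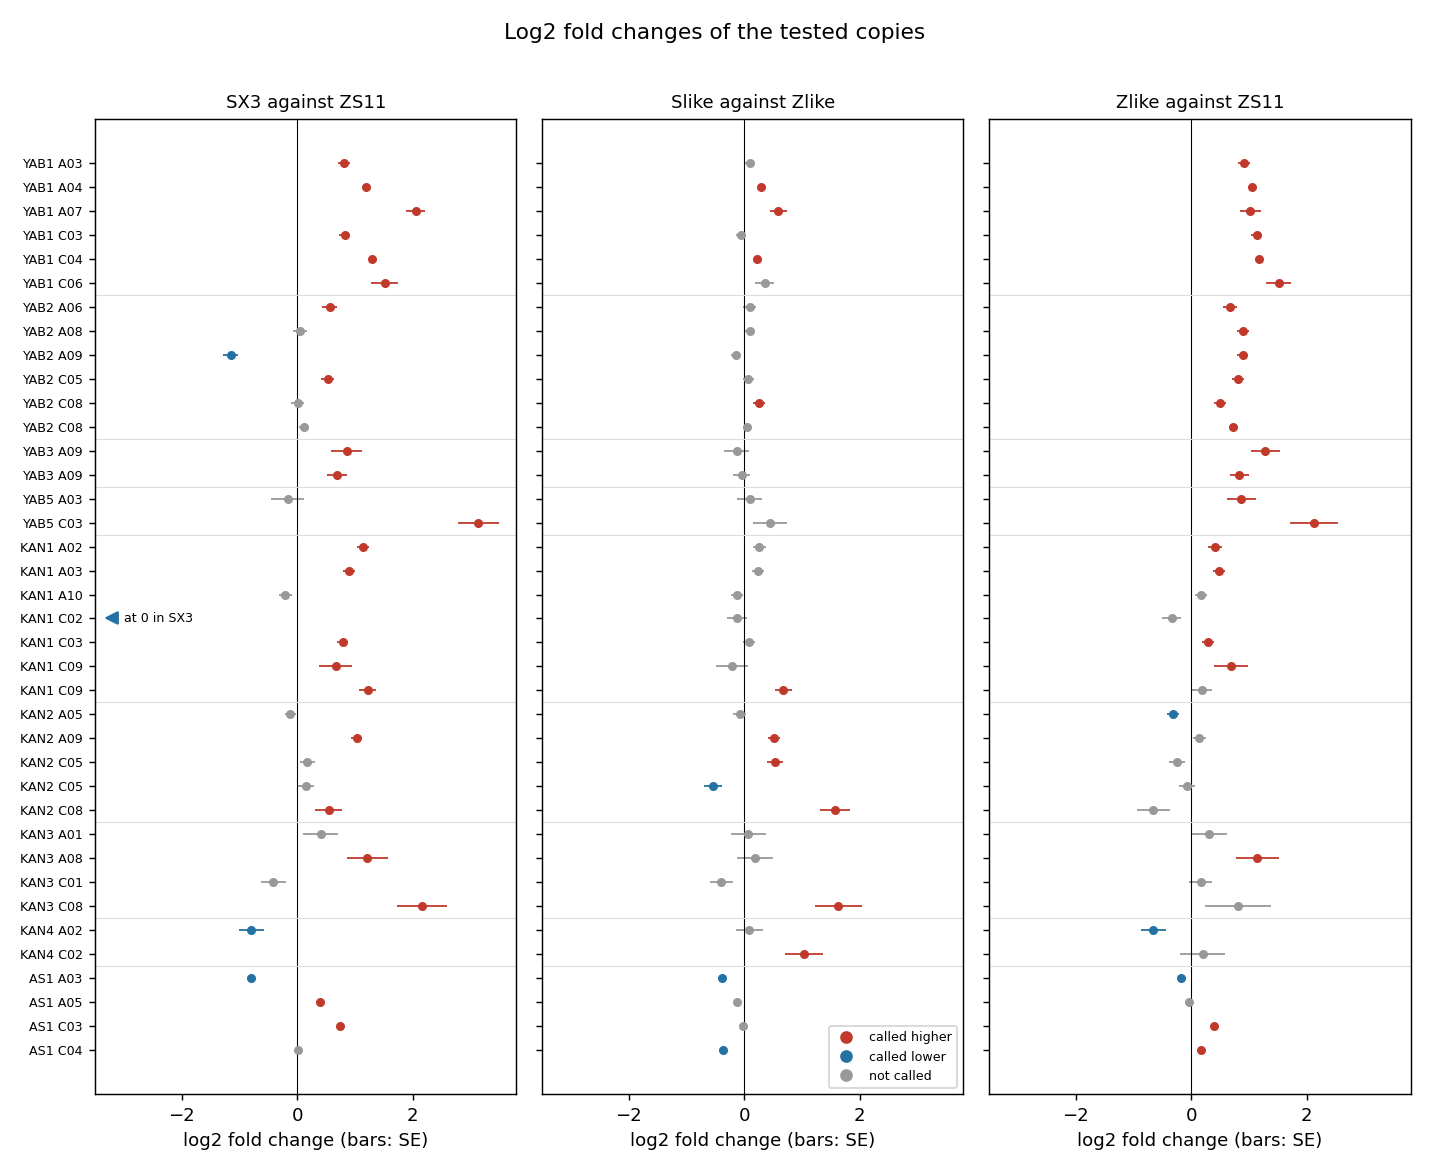
Log2 difference of 38 copies in 3 comparisons (SX3 against ZS11, Slike against Zlike, Zlike against ZS11), with standard errors from the edgeR fit; an arrow marks KAN1 on C02, which was at 0 in SX3. YAB1 copies lie between 0.81 and 2.05 in SX3 against ZS11 and between −0.06 and 0.59 in Slike against Zlike, and YABBY copies between 0.50 and 2.12 in Zlike against ZS11.

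All 6 YAB1 copies were higher in SX3 than in ZS11, against 33.4% of all genes tested. The most abundant, on C04 (BnaC04G0603400ZS, C04, 70230164 to 70232570, minus strand, coordinates as the deposited table gives them, build not given in the sources used here), was at 33, 37 and 36.7 CPM for ZS11, 87.2, 87.8 and 87.5 for SX3, 80, 79.3 and 80.9 for Zlike and 91.3, 96.7 and 92.6 for Slike. Its ZS11 libraries lay far below the rest, and Slike lay above the other groups. It was 2.47-fold higher in SX3 than in ZS11 (log2 SE 0.05, adjusted p = 3.81e-56) and 1.17-fold higher in Slike than in Zlike (log2 0.23 ± 0.04 SE, adjusted p = 2.74e-06), and these differences differed from each other by −1.08 ± 0.06 SE (adjusted p = 1.39e-33). Its homoeolog on A04, BnaA04G0285400ZS, was at 21.7, 22.1 and 21.2 CPM for ZS11, 51.2, 47.5 and 49.6 for SX3, 46.5, 43.1 and 44.7 for Zlike and 53.6, 57.8 and 53.2 for Slike. It kept the same order of groups, with log2 1.19 ± 0.06 SE between the parents and 0.29 ± 0.05 SE between the backcross classes (adjusted p = 2.41e-40 and 1.89e-06).

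The YAB1 copy with the largest parental fold was a rare one, on A07 (BnaA07G0201600ZS, A07, 21615234 to 21617562, plus strand), at 2.32, 2.46 and 1.7 CPM for ZS11, 9.78, 9.03 and 8.47 for SX3, 4.56, 4.4 and 4.37 for Zlike and 6.88, 7.14 and 6.07 for Slike. None of the 4 groups overlapped another, and SX3 stood highest. It was 4.15-fold higher in SX3 than in ZS11 (log2 2.05 ± 0.16 SE, adjusted p = 8.92e-24) and 1.51-fold higher in Slike than in Zlike (log2 0.59 ± 0.15 SE, adjusted p = 0.00107). Its partner on C06, BnaC06G0210100ZS, was at 0.871, 1.88 and 1.48 CPM for ZS11, 4.37, 3.39 and 4.21 for SX3, 4.56, 4.14 and 3.23 for Zlike and 4.39, 5.11 and 5.74 for Slike. The ZS11 libraries were again the lowest (log2 1.52, adjusted p = 2.22e-09), and the backcross classes overlapped (adjusted p = 0.111).

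The pair on A03 and C03 moved between the parents and not between the backcross classes. BnaA03G0219600ZS was at 8.36, 9.51 and 10.7 CPM for ZS11, 13.6, 17 and 18.9 for SX3, 18, 17.4 and 18 for Zlike and 19.6, 17.1 and 20.3 for Slike. BnaC03G0258500ZS was at 8.77, 8.73 and 10.3 CPM for ZS11, 14.6, 15.6 and 18.4 for SX3, 19.4, 21.8 and 19.6 for Zlike and 19, 20.4 and 19.2 for Slike. In both, the ZS11 libraries lay below every other library. The parental differences were 0.81 and 0.82 on the log2 scale (adjusted p = 2.38e-12 and 1.03e-12), and those between Slike and Zlike were 0.10 and −0.06 (adjusted p = 0.441 and 0.67). For all 6 YAB1 copies the difference of the differences was called and negative, from −1.46 to −0.72. Over all genes, 23.2% were called lower in that test.

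Of the 6 YAB2 copies, 2 were higher in SX3 than in ZS11 (33.4% over all genes), 1 was lower (35.9%) and 3 were not called. The most abundant, on C08 (BnaC08G0530700ZS, C08, 53407872 to 53412418, minus strand), was at 16, 13.9 and 15.8 CPM for ZS11, 17.3, 16.7 and 16 for SX3, 24.2, 25.5 and 26.2 for Zlike and 27.2, 26.3 and 25.2 for Slike. The backcross classes lay above both parents, by log2 0.73 ± 0.08 SE for Zlike against ZS11 (adjusted p = 1.18e-14), while neither main comparison was called (adjusted p = 0.203 and 0.652). Its homoeolog on A09 (BnaA09G0665900ZS, A09, 63005008 to 63008787, minus strand) was at 9.87, 10.7 and 11 CPM for ZS11, 3.7, 5.78 and 4.68 for SX3, 20.9, 17.6 and 20 for Zlike and 19, 16.7 and 17.3 for Slike. SX3 was below all other groups, 2.22-fold lower than ZS11 (log2 −1.15 ± 0.13 SE, adjusted p = 5.04e-14), whereas Slike and Zlike overlapped (adjusted p = 0.236) and the differences differed by 1.01 ± 0.16 SE (adjusted p = 1.02e-08). Of the 40 nearest tested genes around it, 23 were lower and 8 higher in SX3, with a median of −0.34. The shares over all genes were 35.9% lower and 33.4% higher. The part of the region in the parental difference of this copy was not tested.

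The pair on A06 and C05 was higher in SX3. BnaA06G0050400ZS was at 5.63, 8.67 and 6.29 CPM for ZS11, 11.6, 8.88 and 9.89 for SX3, 10.2, 12.4 and 9.89 for Zlike and 11.6, 10.4 and 12.9 for Slike. BnaC05G0063000ZS was at 7.61, 8.47 and 7.28 CPM for ZS11, 11.7, 11 and 11.1 for SX3, 12.3, 14.1 and 14.7 for Zlike and 14.3, 14.1 and 14.6 for Slike. ZS11 was the lowest group of both copies, with differences of 0.56 and 0.53 on the log2 scale against SX3 (adjusted p = 3.49e-05 and 1.73e-05); Slike and Zlike were not called. On C08, a further copy (BnaC08G0183800ZS, C08, 29232641 to 29236536, plus strand) was at 10.7, 7.7 and 8.7 CPM for ZS11, 9.03, 8.81 and 9.54 for SX3, 12.8, 13.3 and 12.4 for Zlike and 16.2, 16.5 and 13.4 for Slike. The parents overlapped (adjusted p = 0.954), and Slike lay just above Zlike (log2 0.26 ± 0.10 SE, adjusted p = 0.0346); this call is lost with DESeq2 (adjusted p = 0.135) and without Zlike replicate 1 or 3 or Slike replicate 1 or 2 (adjusted p = 0.0708, 0.104, 0.137 and 0.187). Its partner on A08, BnaA08G0299400ZS, was at 8.25, 8.15 and 9.62 CPM for ZS11, 7.33, 8.81 and 10.4 for SX3, 15.1, 16.6 and 16.8 for Zlike and 18.6, 18 and 15.5 for Slike, with no call in either main comparison (adjusted p = 0.737 and 0.443) and a Zlike level 1.87-fold above ZS11 (adjusted p = 2.23e-13).

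**Figure D3:**
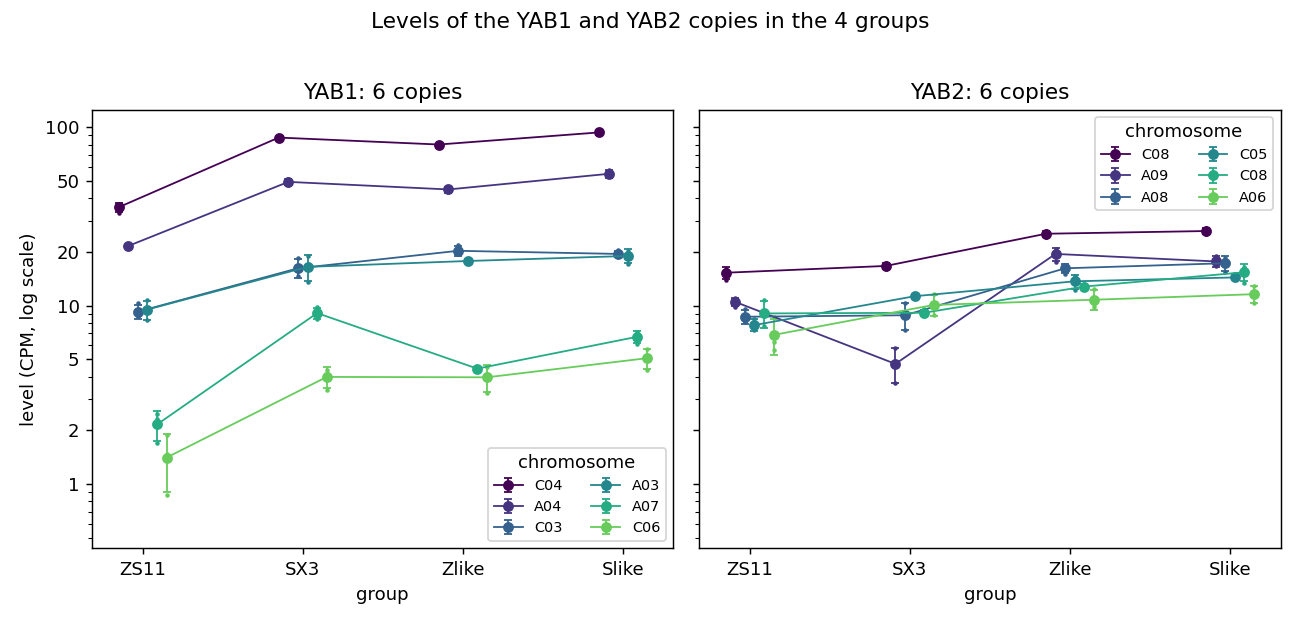
Levels of the 6 YAB1 and 6 YAB2 copies in the 4 groups, in TMM-scaled CPM on a log axis; small points are libraries, and large points with bars are the mean ± SD of 3 libraries. For YAB1 on C04 the means are 35.6 in ZS11, 87.5 in SX3, 80 in Zlike and 93.5 in Slike, and for YAB2 on A09 they are 10.5, 4.72, 19.5 and 17.7.

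Both YAB3 copies lie on A09 and share flanking gene names. The more abundant (BnaA09G0010100ZS, A09, 586114 to 588727, minus strand) was at 3.89, 3.88 and 2.47 CPM for ZS11, 4.89, 6.5 and 5.33 for SX3, 6.42, 6.56 and 5.45 for Zlike and 4.98, 6.37 and 6.55 for Slike. ZS11 lay lowest without overlap (log2 0.69 ± 0.17 SE, adjusted p = 0.00015), and the other groups overlapped (Slike against Zlike, adjusted p = 0.873). The other copy (BnaA09G0000600ZS, A09, 102048 to 104690, plus strand) was at 1.39, 0.841 and 1.34 CPM for ZS11, 2.07, 2.31 and 2.13 for SX3, 3.52, 2.8 and 2.44 for Zlike and 2.34, 2.8 and 2.83 for Slike. It was likewise lowest in ZS11 (log2 0.86 ± 0.27 SE, adjusted p = 0.00338) and not called between Slike and Zlike (adjusted p = 0.703).

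The YAB5 pair differed within itself. The copy on C03 (BnaC03G0279900ZS, C03, 17818386 to 17821254, plus strand) was at 0.232, 0.194 and 0.495 CPM for ZS11, 3.41, 2.6 and 2.19 for SX3, 1.8, 1.53 and 0.645 for Zlike and 1.98, 1.54 and 1.96 for Slike. ZS11 lay below every other library, and SX3 was 8.82-fold higher (log2 3.14 ± 0.35 SE, adjusted p = 1.74e-14). This was the largest fold among YABBY copies between the parents. The copy passed the filter on low counts through SX3 alone, with 4, 3 and 7 counts in the ZS11 libraries. That selection favours a higher call in SX3, so the fold, its rank and its p are a description. Slike and Zlike overlapped (adjusted p = 0.274). The copy on A03 (BnaA03G0236900ZS, A03, 12368284 to 12370674, plus strand) was at 1.51, 1.55 and 1.41 CPM for ZS11, 1.26, 1.16 and 1.54 for SX3, 2.55, 3.25 and 2.37 for Zlike and 3.51, 2.94 and 2.36 for Slike. The parents overlapped (adjusted p = 0.621) and both lay below Zlike, 1.83-fold above ZS11 (adjusted p = 0.00181).

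Of 7 KAN1 copies tested, 5 were higher and 1 was lower in SX3 than in ZS11 (33.4% and 35.9% over all genes). The most abundant, on C03 (BnaC03G0079700ZS, C03, 4122978 to 4127504, minus strand), was at 9.52, 9.83 and 10.9 CPM for ZS11, 17.6, 15.4 and 18.9 for SX3, 12.8, 13.3 and 10.8 for Zlike and 12.1, 13.3 and 13.8 for Slike. The SX3 libraries lay above all others, and Zlike and Slike overlapped. It was 1.73-fold higher in SX3 than in ZS11 (log2 0.79 ± 0.10 SE, adjusted p = 9.22e-13) and not called between the backcross classes (adjusted p = 0.586). Its partner on A03, BnaA03G0070500ZS, was at 7.43, 8.67 and 8.06 CPM for ZS11, 14.5, 15.7 and 14.6 for SX3, 11.5, 11.5 and 10.7 for Zlike and 12.7, 13.5 and 13.4 for Slike. SX3 was again the highest and ZS11 the lowest group (log2 0.90, adjusted p = 1.22e-13). Of the 40 nearest tested genes around it, 27 were lower and 7 higher in SX3, against 35.9% lower and 33.4% higher over all genes.

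The KAN1 copy on C02 (BnaC02G0074800ZS, C02, 4591282 to 4597394, minus strand) had no count in any SX3 library. It was at 5.11, 6.27 and 5.09 CPM for ZS11, 0, 0 and 0 for SX3, 4.07, 4.33 and 4.66 for Zlike and 3.95, 3.78 and 4.18 for Slike. The groups other than SX3 lay between 3.78 and 6.27 CPM. SX3 was at least 26.7-fold lower than ZS11, against a floor of 3 counts per library (edgeR adjusted p = 3.16e-33). The copy passed the filter on low counts through ZS11 alone in that comparison, which favours a lower call. Slike and Zlike were not called (log2 −0.13, adjusted p = 0.633). All 40 nearest tested genes around it were called lower in SX3, 20 of them at 0 in every SX3 library, with a median log2 difference of −7.89, so the whole stretch had few or no SX3 counts. In Slike against Zlike, 27 of these 40 neighbours were lower, with a median of −0.45, against 13.4% lower over all genes. Without this copy, 22 of 36 tested members were higher and 3 lower in SX3. Their called share, 69.4%, was near the 69.3% over all genes (33.4% higher, 35.9% lower).

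Its homoeolog on A02, BnaA02G0064900ZS, was higher in SX3, at 7.61, 7.11 and 7.14 CPM for ZS11, 16.7, 15.2 and 16.5 for SX3, 8.77, 9.68 and 10.7 for Zlike and 12.1, 10.9 and 11.9 for Slike. SX3 lay above all other libraries, 2.21-fold above ZS11 (log2 1.15 ± 0.10 SE, adjusted p = 1.87e-19), and the step from Zlike to Slike was not called (log2 0.26, adjusted p = 0.063). Summed over this pair, SX3 was at 16.1 ± 0.8 CPM and ZS11 at 12.8 ± 0.58. Of the 40 nearest tested genes around the A02 copy, 20 were higher and 8 lower in SX3 (median log2 difference 0.27). In Slike against Zlike, 19 of its 40 neighbours were higher and 0 lower (median 0.24). The shares of higher calls over all genes were 33.4% and 13.8%. The part of the region in the values of this copy was not tested.

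On C09, 3 rows that start at 60644824, 60645422 and 60660506 carry the name KAN1, and the first of them had no counts. The most abundant (BnaC09G0499400ZS, C09, 60660506 to 60666020, plus strand) was at 3.54, 4.98 and 2.55 CPM for ZS11, 9.33, 8.59 and 8.18 for SX3, 3.94, 3.95 and 4.8 for Zlike and 6.15, 7.56 and 6.55 for Slike. SX3 was highest, Slike second, and Zlike and ZS11 overlapped. It was 2.33-fold higher in SX3 than in ZS11 (log2 1.22 ± 0.15 SE, adjusted p = 6.99e-13) and 1.6-fold higher in Slike than in Zlike (log2 0.68 ± 0.15 SE, adjusted p = 0.000191). The next, BnaC09G0499000ZS, was at 0.929, 1.16 and 1.34 CPM for ZS11, 1.56, 2.09 and 1.78 for SX3, 1.59, 1.78 and 2.15 for Zlike and 1.46, 1.68 and 1.62 for Slike, called higher in SX3 (adjusted p = 0.0311), a call lost with DESeq2 and without ZS11 replicate 1 or 2 or SX3 replicate 2 or 3. The homoeolog on A10, BnaA10G0201000ZS, was at 10.2, 11.1 and 11.2 CPM for ZS11, 9.48, 10.6 and 8.18 for SX3, 13.1, 10.6 and 12.8 for Zlike and 10.4, 12.3 and 10.6 for Slike, and its groups overlapped in both main comparisons (adjusted p = 0.088 and 0.412).

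Among KAN2 copies the most abundant, on A09 (BnaA09G0392600ZS, A09, 45247164 to 45251245, plus strand), was higher in SX3 and in Slike. It was at 8.71, 9.05 and 7.99 CPM for ZS11, 16.7, 16.4 and 19.3 for SX3, 7.94, 10.2 and 10.3 for Zlike and 13.9, 12.1 and 14.6 for Slike. SX3 lay above ZS11 and Slike above Zlike without overlap, 2.04-fold (log2 1.03 ± 0.10 SE, adjusted p = 5.47e-18) and 1.43-fold (log2 0.52 ± 0.11 SE, adjusted p = 5.27e-05), and the first difference was the larger (difference of differences −0.51, adjusted p = 0.00219). The partner on C05, BnaC05G0282700ZS, was at 6.56, 6.79 and 6.79 CPM for ZS11, 8.15, 7.65 and 7.05 for SX3, 4.49, 5.42 and 7.1 for Zlike and 9.15, 7.28 and 8.1 for Slike. Of the main comparisons only Slike against Zlike was called (log2 0.53, adjusted p = 0.00158). A rare copy on C08 (BnaC08G0106700ZS, C08, 19797929 to 19807921, plus strand) was at 1.45, 1.94 and 1.91 CPM for ZS11, 2.22, 2.02 and 3.32 for SX3, 0.967, 1.15 and 1.22 for Zlike and 3.81, 3.85 and 2.36 for Slike. Slike lay above Zlike without overlap, 2.98-fold (log2 1.58 ± 0.26 SE, adjusted p = 2.77e-07); the smaller parental difference (log2 0.54, adjusted p = 0.0373) is lost without ZS11 replicate 1 (0.174), without SX3 replicate 3 (0.404) and with DESeq2 (0.126).

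In the other KAN2 pair, the C05 copy was lower in Slike than in Zlike. BnaC05G0343000ZS was at 6.56, 5.95 and 6.29 CPM for ZS11, 7.18, 7.37 and 6.52 for SX3, 6.42, 6.63 and 4.8 for Zlike and 4.39, 3.99 and 3.98 for Slike. Its Slike libraries were the lowest of the 12 (log2 −0.54 against Zlike, adjusted p = 0.00612), a call lost without Zlike replicate 2. BnaA05G0326000ZS was at 13.8, 13 and 12 CPM for ZS11, 11.2, 12.3 and 12.3 for SX3, 11.9, 8.73 and 10.7 for Zlike and 9.15, 10.2 and 10.3 for Slike. It was not called in either main comparison (adjusted p = 0.293 and 0.686).

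KAN3 copies were rare. The most abundant, on C01 (BnaC01G0107100ZS, C01, 7042678 to 7045277, minus strand), was at 2.73, 3.69 and 2.76 CPM for ZS11, 2.81, 2.09 and 2.01 for SX3, 3.45, 3.63 and 3.15 for Zlike and 3.07, 2.38 and 2.36 for Slike. The parents overlapped and Slike lay below Zlike, with no call in either comparison (log2 −0.41 and −0.40, adjusted p = 0.0785 and 0.153). Without SX3 replicate 1 the parental difference was called (adjusted p = 0.0334). The copy on C08 (BnaC08G0154200ZS, C08, 26186541 to 26189057, minus strand) was at 0.407, 0.259 and 0.0707 CPM for ZS11, 0.963, 1.3 and 1.24 for SX3, 0.345, 0.191 and 0.86 for Zlike and 0.951, 1.61 and 1.69 for Slike. SX3 lay above ZS11 and Slike above Zlike without overlap (log2 2.17 ± 0.44 SE, adjusted p = 5.15e-06, and log2 1.63 ± 0.41 SE, adjusted p = 0.0008), at levels of at most 1.69 CPM. This C08 copy passed the filter on low counts through SX3 alone and through Slike alone. That selection favours both calls, so they are a description. BnaA08G0106200ZS was at 0.29, 0.97 and 0.495 CPM for ZS11, 1.04, 1.37 and 1.6 for SX3, 1.1, 1.59 and 1.15 for Zlike and 1.39, 1.26 and 1.75 for Slike. It was higher in SX3 than in ZS11 (log2 1.22, adjusted p = 0.00166), having passed the filter there through SX3 alone. BnaA01G0088100ZS was at 0.871, 1.23 and 1.34 CPM for ZS11, 1.48, 1.08 and 1.9 for SX3, 1.04, 1.66 and 1.51 for Zlike and 1.83, 1.75 and 0.877 for Slike, with overlapping groups and no call (adjusted p = 0.223 and 0.898).

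Both KAN4 copies had their lowest mean in SX3. The copy on A02 (BnaA02G0278500ZS, A02, 24165290 to 24167008, minus strand) was at 3.72, 3.04 and 3.54 CPM for ZS11, 2.3, 2.31 and 1.42 for SX3, 2.28, 2.1 and 2.15 for Zlike and 2.63, 2.45 and 1.89 for Slike. SX3 lay below ZS11, 1.74-fold (log2 −0.80 ± 0.22 SE, adjusted p = 0.000681), and Zlike and Slike overlapped (adjusted p = 0.828). The copy on C02 (BnaC02G0379600ZS, C02, 45269263 to 45271031, plus strand) was at 0.465, 0.97 and 0.849 CPM for ZS11, 0.592, 0.578 and 0.296 for SX3, 1.1, 0.764 and 0.717 for Zlike and 1.68, 1.47 and 2.16 for Slike. Slike lay above every other library, 2.05-fold above Zlike (log2 1.04 ± 0.32 SE, adjusted p = 0.00939); the parents were too low to be tested, and the call is lost with DESeq2 (adjusted p = 0.0543) and without Slike replicate 3 (0.0892).

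AS1 copies changed in opposite directions between the parents. The copy on A03 (BnaA03G0180300ZS, A03, 9295796 to 9297476, minus strand) was at 109, 110 and 102 CPM for ZS11, 61.6, 60.1 and 62 for SX3, 95.9, 94.9 and 94.1 for Zlike and 70, 76.1 and 73.2 for Slike. SX3 was the lowest group and ZS11 the highest, with the backcross classes between them. It was 1.75-fold lower in SX3 than in ZS11 (log2 −0.81 ± 0.04 SE, adjusted p = 1.2e-41) and 1.3-fold lower in Slike than in Zlike (log2 −0.38 ± 0.04 SE, adjusted p = 1.32e-13). Its homoeolog on C03, BnaC03G0211100ZS, was at 36.4, 41.1 and 38.3 CPM for ZS11, 61.8, 64.8 and 67.4 for SX3, 52.4, 49.7 and 49.9 for Zlike and 47.2, 50.1 and 51.6 for Slike, with SX3 1.68-fold above ZS11 (log2 0.75 ± 0.05 SE, adjusted p = 1.37e-29) and no call between Slike and Zlike (adjusted p = 0.74). Of the 40 nearest tested genes around the C03 copy 25 were higher and 5 lower in SX3, and around the A03 copy 15 were higher and 16 lower. The shares over all genes were 33.4% higher and 35.9% lower.

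The most abundant AS1 copy, on C04 (BnaC04G0090000ZS, C04, 8150680 to 8152464, plus strand), was at 113, 118 and 109 CPM for ZS11, 114, 113 and 117 for SX3, 123, 127 and 133 for Zlike and 98.1, 101 and 98.3 for Slike. The parents overlapped, Zlike was the highest group and Slike the lowest. Between the parents it was not called (log2 0.02, adjusted p = 0.632, but 0.0376 with upper-quartile scaling), and in Slike it was 1.29-fold lower than in Zlike (log2 −0.37 ± 0.04 SE, adjusted p = 2.18e-15). Its partner on A05, BnaA05G0077400ZS, was at 57.3, 62.4 and 52.3 CPM for ZS11, 76.5, 74.3 and 75.7 for SX3, 55.2, 56.5 and 55.9 for Zlike and 50.9, 52.5 and 50.7 for Slike. SX3 was highest (log2 0.40, adjusted p = 1.54e-14), and Slike lay below Zlike without a call (adjusted p = 0.0576). The LBD6 rows, outside the rule, were also measured. BnaA02G0157500ZS was at 1.39, 1.29 and 1.06 CPM for ZS11, 1.56, 1.52 and 1.48 for SX3, 3.11, 3.89 and 2.94 for Zlike and 3.07, 3.64 and 3.17 for Slike. BnaC02G0201100ZS was at 2.32, 2.39 and 2.19 CPM for ZS11, 3.48, 2.38 and 2.96 for SX3, 6.08, 4.52 and 4.87 for Zlike and 6, 7 and 4.99 for Slike. Both backcross classes lay above both parents in each row (Zlike against ZS11: log2 1.40, adjusted p = 2.63e-07 and log2 1.16, adjusted p = 4.18e-08), and neither main comparison was called.

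Pairs of homoeologs, matched by at least 5 shared protein names within 20 rows on each side, could be described by the share of the A copy in the pair's sum. In AS1 on A03 and C03 this share was 73.5 ± 1.27% (SD, n = 3) in ZS11, 48.6 ± 1.1% in SX3, 65.2% in Zlike and 59.6% in Slike, while the sum ran from 146 CPM in ZS11 to 126 in SX3. In YAB5 it was 83.2 ± 7.99% in ZS11 and 33 ± 7.4% in SX3, with the backcross classes between them at 68.4 and 61.4%. YAB2 on A09 and C08 had 40.9% in ZS11 and 22% in SX3, against 43.5% in Zlike and 40.3% in Slike. In YAB1 on A04 and C04 the share lay between 35.9 and 37.9% in every group. Pairs were made one to one, those with the most shared names first. YAB2 on A08 shared 10 names with its partner BnaC08G0183800ZS. It shared 13 with the other C08 copy, BnaC08G0530700ZS, which was paired with A09 (27 names). The split of reads between near-identical copies was not checked, and no test was run on shares.

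**Figure D4:**
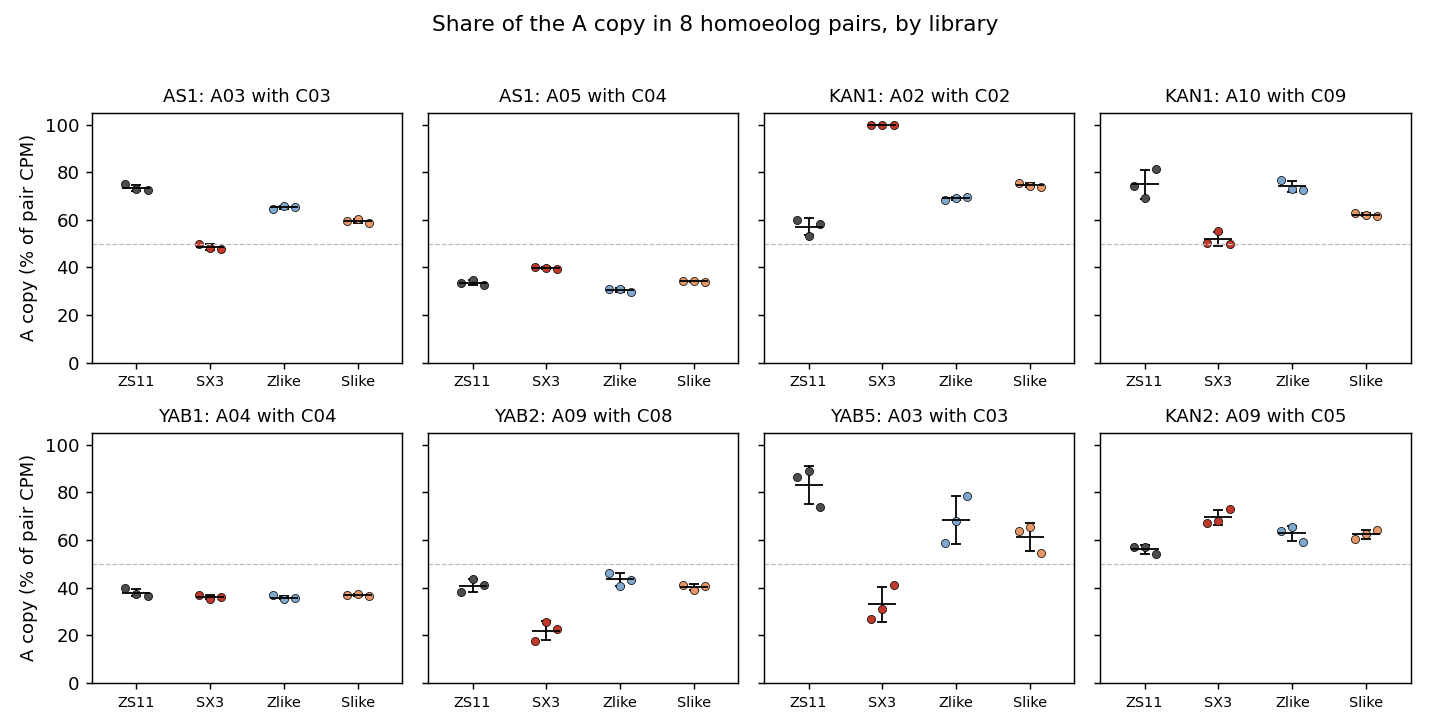
Share of the A copy in the summed CPM of 8 homoeolog pairs, in percent, for the 4 groups; points are libraries. The AS1 pair on A03 and C03 has a share of 73.5% in ZS11 and 48.6% in SX3, the YAB5 pair 83.2% and 33%, and the YAB1 pair on A04 and C04 between 35.9 and 37.9% in every group.

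Other genes of the polarity network were called in both directions. For each list below, the shares over all genes were 33.4% higher and 35.9% lower in SX3, and 13.8% higher and 13.4% lower in Slike. Of the HD-ZIP III factors, which specify the adaxial side (31 rows), 13 were higher and 9 lower of 25 tested in SX3, and 7 higher and 7 lower of 25 in Slike. Their median log2 differences were 0.15 and 0.02, against −0.01 and 0.00 over all genes. The most abundant, ATHB-15 on C03, was at 222 ± 2.09 CPM (SD, n = 3) for ZS11, 200 ± 3.54 for SX3, 122 ± 1.59 for Zlike and 107 ± 2.83 for Slike. It was lower in SX3 than in ZS11 (adjusted p = 3.7e-07) and in Slike than in Zlike (adjusted p = 1.28e-05). The largest fitted change between the parents was in REV on C07, at 0 in ZS11, 4.5 ± 0.419 CPM in SX3, 0.868 ± 0.207 in Zlike and 2.54 ± 0.313 in Slike; it passed the filter through SX3 alone and through Slike alone.

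Of the KNOX genes (12 rows), 2 were higher and 8 lower of 10 tested in SX3, and 10 of 11 were lower in Slike, with medians of −0.51 and −0.25. STM on C09, which keeps meristem cells undifferentiated, was at 134 ± 0.559 CPM (SD, n = 3) for ZS11, 91.2 ± 3.71 for SX3, 75.7 ± 2.77 for Zlike and 63.5 ± 4.04 for Slike. It was 1.46-fold lower in SX3 (adjusted p = 1.66e-31) and 1.19-fold lower in Slike (adjusted p = 3.4e-06). KNAT2 on A02 was at 37.6 ± 1.79 CPM (SD, n = 3) for ZS11, 9.5 ± 0.673 for SX3, 24.9 ± 1.28 for Zlike and 17.1 ± 0.978 for Slike, and it was 3.97-fold lower in SX3 (adjusted p = 1.46e-50). KNOX sums ran from 649 to 663 CPM in ZS11, 447 to 457 in SX3, 403 to 410 in Zlike and 321 to 334 in Slike.

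Of the genes of the blade margin and of outgrowth (27 rows), 14 were higher and 1 lower of 20 tested in SX3 (median 0.89), and 3 were higher and 1 lower of 20 in Slike (median 0.16). WOX3 on A04, which acts at the margin of organs, was at 0.742 ± 0.0932 CPM (SD, n = 3) for ZS11, 3.25 ± 0.259 for SX3, 2.05 ± 0.315 for Zlike and 2.37 ± 0.552 for Slike. It was 4.32-fold higher in SX3 than in ZS11 (adjusted p = 6.79e-12), having passed the filter through SX3 alone. NPR5 on A04 was at 11.2 ± 0.61 CPM (SD, n = 3) for ZS11, 24.4 ± 0.772 for SX3, 19.3 ± 1.25 for Zlike and 20.9 ± 1.71 for Slike, likewise higher in SX3 (adjusted p = 5.95e-25). WOX1 on A05 was rare, at 0.458 ± 0.208 CPM (SD, n = 3) for ZS11, 0.939 ± 0.376 for SX3, 0.521 ± 0.157 for Zlike and 1.41 ± 0.407 for Slike, and higher in Slike than in Zlike (adjusted p = 0.00245), where it passed the filter through Slike alone. CRC, the carpel gene of the YABBY family, was higher in both comparisons in both copies, with the copy on A07 at 5.87 ± 0.744 CPM (SD, n = 3) for ZS11, 16 ± 1.63 for SX3, 9.96 ± 0.315 for Zlike and 21.8 ± 1.02 for Slike and the copy on C06 at 1.86 ± 0.0186 in ZS11 and 7.6 ± 0.769 in SX3.

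Of the auxin response factors ARF3 and ARF4, which act on the abaxial side (11 rows), 3 were higher and 5 lower of 8 in SX3 (median −0.57), and 1 was higher and 3 lower of 8 in Slike (median −0.16). ARF4 on C09 was at 41.2 ± 1.68 CPM (SD, n = 3) for ZS11, 69 ± 1.7 for SX3, 50.6 ± 3.33 for Zlike and 57.3 ± 4.36 for Slike, higher in SX3 (adjusted p = 5.4e-31). ARF4 on C02, which starts at 8179510, was at 12.7 ± 0.727 CPM (SD, n = 3) for ZS11, 0 ± 0 for SX3, 11.7 ± 0.412 for Zlike and 7.95 ± 0.338 for Slike. Like the KAN1 copy on C02 it had no SX3 count and passed the filter through ZS11 alone. The co-repressors (60 rows) were higher in 17 and lower in 12 of 55 in SX3 and higher in 13 and lower in 6 of 56 in Slike, with medians of 0.01 and 0.06. TPR1 on A07, the most abundant, was at 110 ± 1.41 CPM (SD, n = 3) for ZS11, 110 ± 1.2 for SX3, 103 ± 4.05 for Zlike and 104 ± 3.36 for Slike, with no call in either comparison. TPR4 on C02, which starts at 2186994, was at 34.7 ± 1.17 CPM (SD, n = 3) for ZS11, 0.122 ± 0.113 for SX3, 29.1 ± 0.889 for Zlike and 22.6 ± 0.601 for Slike, and so it too was nearly without SX3 counts and passed through ZS11 alone. TPR2 on C07 was lower in Slike than in Zlike, at 0.769 ± 0.199 against 1.88 ± 0.361 CPM (adjusted p = 0.00121), and it passed the filter there through Zlike alone.

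The ta-siRNA genes (17 rows), which limit ARF3 and ARF4 transcripts, were higher in 6 and lower in 3 of 14 in SX3 and higher in 4 and lower in 1 of 13 in Slike, with medians of 0.18 and 0.16. SGS3 on C07 was at 175 ± 2.7 CPM (SD, n = 3) for ZS11, 180 ± 1.95 for SX3, 166 ± 4.56 for Zlike and 196 ± 3.24 for Slike, higher in Slike than in Zlike (adjusted p = 1.12e-10). A rare SGS3 row on C05 was at 0 in ZS11 and at 2.23 ± 0.0727 CPM in SX3, through which alone it passed. AGO7 on C01 was at 3.58 ± 0.252 CPM (SD, n = 3) for ZS11, 5.51 ± 0.315 for SX3, 4.96 ± 0.472 for Zlike and 3.52 ± 0.423 for Slike, higher in SX3 (adjusted p = 0.000378) and lower in Slike (adjusted p = 0.0235). Of 3 AGO10 rows, 2 were tested: the copy on C07 was higher in SX3, at 117 ± 3.07 against 85.3 ± 3.17 CPM in ZS11, and the copy on A06 was lower in SX3 and in Slike (adjusted p = 0.0345 and 0.000221). Over all 163 rows of these lists, 58 were higher and 39 lower of 136 in SX3, and 30 higher and 29 lower of 137 in Slike. Those shares can be read against 69.3% and 27.2% called over all genes. By direction, the all-gene shares were 33.4% higher and 35.9% lower in SX3, and 13.8% higher and 13.4% lower in Slike.

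Markers of other cell types moved with the groups. Their calls can be read against 33.4% higher and 35.9% lower over all genes in SX3, and 13.8% higher and 13.4% lower in Slike. Summed floral organ markers (34 rows) ran at 49.3 to 51.8 CPM in ZS11, 240 to 243 in SX3, 123 to 131 in Zlike and 443 to 450 in Slike, and 25 of 28 tested rows were higher in SX3 and 25 of 29 in Slike. Of the anther markers (8 rows), AMS and DYT1 together reached 22.5 to 23 CPM in Slike and at most 0.465 in any other library, and MS1 was at 0 throughout. Green tissue markers (17 rows) ran at 2301 to 2337 CPM in ZS11 and 687 to 708 in SX3, with Zlike at 1122 to 1186 and Slike at 1385 to 1398. LHCB1.3 made up nearly all of that sum, at 2321 CPM in ZS11 and 699 in SX3, whereas RBCS-3B went from 0.0429 to 1.33 and was at 10.8 in Slike. Of 11 green tissue rows tested, 5 were higher and 6 lower in SX3, and 9 were higher and 1 lower in Slike; the RBCS-1B rows were at 0. Meristem markers (18 rows), led by STM, ran from 367 to 381 in ZS11, 297 to 300 in SX3, 287 to 295 in Zlike and 229 to 239 in Slike. Between the parents STM went from 268 CPM in ZS11 to 147 in SX3, while TFL1 went from 102 to 147 and WUS from 1.01 to 2.8. Of 10 meristem rows tested 4 were higher and 3 lower in SX3, and of 12 tested 2 were higher and 5 lower in Slike. STM, which defines the meristem, was detected in every group, while WUS averaged at most 2.8 CPM and CLV3 at most 1.6 CPM in a group. Vascular markers (72 rows) ran from 322 to 337 in ZS11, 303 to 310 in SX3, 272 to 276 in Zlike and 251 to 256 in Slike. APL, the name of 32 of these rows, went from 225 CPM in ZS11 to 150 in SX3. Names are best protein matches, and whether all 32 rows are copies of APL was not checked. The other 7 vascular names had higher means in SX3, such as ATHB-8 (23.3 and 36.6) and CESA4 (4.58 and 10.4). Of 50 vascular rows tested 23 were higher and 14 lower in SX3 (median log2 difference 0.37), and of 47 tested 7 were higher and 10 lower in Slike (median −0.06). The part of these cell types in the YABBY, KANADI and AS1 values was not tested.

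Across the 12 libraries, among 30794 genes, the genes most like YAB1 on C04 were CSP4 (BnaC04G0426700ZS, r = 0.994), APRR7 (BnaA02G0009400ZS, r = 0.993) and UBC28 (BnaC09G0147700ZS, r = 0.993), by the correlation of log2 CPM. For KAN1 on C03 they were UVR8 (BnaC09G0534200ZS, r = 0.970), TRS130 (BnaC02G0167200ZS, r = 0.968) and COI1 (BnaC04G0243100ZS, r = 0.968). For AS1 on C04 they were PCAP1 (BnaA01G0108300ZS, r = 0.911), ASN2 (BnaC03G0526600ZS, r = 0.899) and POK2 (BnaC05G0406000ZS, r = 0.885). Genes with r over 0.9 numbered 1047 for the YAB1 copy, 1287 for the KAN1 copy and 1 for the AS1 copy. The 12 libraries fall into 4 groups, so these values describe the same group pattern and are given with no test.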

How the data were processed

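RNA-seq counts of 12 libraries were used, grouped by sample title. The authors deposited whole-number read counts per gene without normalization, per the file headers, and FPKM values, which the deposited counts, gene lengths and library totals gave again to within a relative deviation of 8.4e-15. The submitters' processing notes name fastp, HISAT2 and featureCounts without versions. The genome build, like strand use and the fate of multi-mapping reads, is not given in the sources used here.

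Counts were tested with edgeR 4.0.16 in R 4.3.3 (filterByExpr, TMM scaling, glmQLFit and glmQLFTest, two-sided, Benjamini-Hochberg over all genes kept, called at an adjusted p under 0.05). The main comparisons used their own 6 libraries, and the others used all 12. Counts summed per protein match were fitted likewise. Levels are TMM-scaled CPM over all 12 libraries. Log2 values are log2 fold changes; likeness used log2(CPM + 0.5). A total of 0 counts in a library allows 3 counts. Libraries of a group differed beyond sampling noise (chi-square per gene 1.35 to 1.47). The analysis was tested on simulated data. Alternatives were RLE and upper-quartile scaling, no filter, a filter of 1 CPM in 3 libraries, DESeq2 1.42.0, the replicate block and leaving out each library.

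Values per library are given for the 38 copies that reach a mean of 1 CPM in a group. Full statistics are given for the most abundant copy of a name and for the called copy with the largest log2 difference in each main comparison. Members and lists were chosen with earlier results of these data known. The authors' tables of their own comparisons were not used here.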

Additional observations from a re-analysis of the deposited data

Results flagged for a closer look

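The difference of the differences, (Slike − Zlike) − (SX3 − ZS11), was called by edgeR (adjusted p under 0.05, all 12 libraries) for 15 of the 20 copies given with full statistics. Over all genes tested, 53.3% were called (30.1% higher, 23.2% lower). The 20 copies were chosen in part for a large difference in 1 of the 2 main comparisons, which favours such a call, so the count of 15 is a description. Negative values mean that the difference between Slike and Zlike was below that between SX3 and ZS11.

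Among YABBY genes the value was −1.46 for YAB1 on A07 (BnaA07G0201600ZS, adjusted p = 9.2e-09) and −1.08 for YAB1 on C04 (BnaC04G0603400ZS, adjusted p = 1.39e-33). It was −0.99 for YAB3 BnaA09G0000600ZS (adjusted p = 0.0107) and −0.73 for YAB3 BnaA09G0010100ZS (adjusted p = 0.00327). YAB2 on A09 (BnaA09G0665900ZS) stood apart with 1.01 (adjusted p = 1.02e-08). YAB5 on C03 (BnaC03G0279900ZS) had −2.69 (adjusted p = 1.32e-06). Between the parents this YAB5 copy passed the filter on low counts through SX3 alone, with 4, 3 and 7 counts in the ZS11 libraries. Its value and p here are therefore a description.

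Among KANADI genes the value was −0.70 for KAN1 on C03 (BnaC03G0079700ZS, adjusted p = 7.26e-06), −0.54 for KAN1 on C09 (BnaC09G0499400ZS, adjusted p = 0.0287) and −0.51 for KAN2 on A09 (BnaA09G0392600ZS, adjusted p = 0.00219). It was 1.03 for KAN2 on C08 (BnaC08G0106700ZS, adjusted p = 0.0116), 0.89 for KAN4 on A02 (BnaA02G0278500ZS, adjusted p = 0.0145) and 1.68 for KAN4 on C02 (BnaC02G0379600ZS, adjusted p = 0.00654). For KAN4 on C02 the parents were too low to be tested by themselves. Its call in Slike against Zlike is lost with DESeq2 (adjusted p = 0.0543) and without Slike replicate 3 (0.0892). KAN1 on C02 (BnaC02G0074800ZS) was at 0 in SX3, so no fitted size is given (adjusted p = 7.81e-26). Between the parents it passed the filter on low counts through ZS11 alone, so this p is a description.

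For AS1 the value was 0.43 on A03 (BnaA03G0180300ZS, adjusted p = 8.56e-11) and −0.39 on C04 (BnaC04G0090000ZS, adjusted p = 3.79e-11).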

How the results depend on the processing

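The counts of called members and protein names, in each comparison and direction, stayed within 1.5 times the main count under all alternatives run; counts within a family can move more, as the lower YABBY count for Slike against SX3 did. No log2 difference called in the main comparisons changed its sign. Uncalled ones of AS1 on C04 and YAB2 on C08 (SX3 against ZS11) and of KAN4 on A02, both YAB3 copies and YAB5 on A03 (Slike against Zlike) did when a library was left out, for example AS1 from 0.019 to −0.013 without ZS11 replicate 3. The 26 calls between SX3 and ZS11 ranged from 24 to 27 when a library was left out, the 13 between Slike and Zlike from 12 to 13, and DESeq2 gave 24 and 11. No effect shared by libraries of the same replicate number was seen. Deviations from the group means of same-numbered libraries correlated at −0.0138 to 0.0132 over 18 pairs. Whether such libraries were harvested or prepared together cannot be told from these values. With the replicate block 25 and 13 members were called in the main comparisons, 26 in the difference of differences, 26 for Zlike against ZS11, 23 for Slike against SX3, and 7 and 4 protein names; KAN2 BnaC08G0106700ZS lost its parental call (adjusted p = 0.059). Copies near the filter are limited by depth: KAN3 BnaC08G0154200ZS is not tested under the filter of 1 CPM.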
